A study of Mus musculus with 7 samples.

Results

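The regions described here had an ATAC-seq peak in both libraries of Sox2-positive cells from the mouse lower incisor and in none of the other 5 libraries, each limited to its best-ranked peaks. From each library the 38000 peaks with the smallest p-values on chromosomes 1 to 19 were taken, and all peaks that shared at least 1 bp were merged into 77136 regions. Of these, 1141 (1.48%) met the rule. A stricter subset of 253 regions (0.328%) also had no peak in the full deposited lists of the other 5 libraries, which reach beyond rank 38000. The regions were thus chosen by the peaks and their p-values, so their number, rank and signal are given as a description, with no test.

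The mouse incisor grows throughout life, and its enamel-forming epithelium is renewed from progenitors in the labial cervical loop, an epithelial pocket at the base of the tooth. The transcription factor SOX2 marks progenitor cells of that pocket. ATAC-seq uses a transposase that cuts DNA where nucleosomes are open, so a peak marks accessible chromatin such as a promoter or an enhancer.

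The Sox2-positive cells were sorted by fluorescence from labial cervical loops of the lower incisor at postnatal day 2 (P2), in Sox2-GFP mice whose GFP follows the endogenous Sox2 promoter (2 libraries, replicates 1 and 2). The labels call them DESC, for dental epithelial stem cells. Ectoderm of the first pharyngeal arch, peeled from its mesenchyme after Dispase II at embryonic day 11.5 (E11.5), gave 2 libraries. Whole teeth at P2 gave 1 library each for the lower incisor, the first lower molar and the first upper molar. All 7 used the Omni-ATAC protocol. The labels give no strain, and do not say whether replicates were separate animals or how many animals were pooled. A whole tooth mixes epithelium, mesenchyme, vessels and blood, so fewer Sox2-positive cells and less open chromatin per cell cannot be told apart there.

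Peak lists hold no reads, so the depth of each library is unknown and its effect on these regions was not tested. The full lists held 41829 and 38326 autosomal peaks in Sox2-positive replicates 1 and 2, against 49719 to 80850 in the other libraries. Rank 38000 therefore fell at a −log10 p of 3.33 and 2.94 in the Sox2-positive lists and at 3.82 to 4.79 in the others. The libraries' labels were checked against 13 markers of dental epithelium by peaks with a gene end no more than 1 kb away. Replicates 1 and 2 had 11 and 12 of them, Sox2, Lgr5, Gli1 and Krt14 included, and neither had a peak at Trp63. Over all genes the share was 57.3% and 57%. The whole incisor had 9 of the 13, against 55.5% of all genes, the molars 10 each and the ectoderm libraries 11 and 12, so these markers do not set the Sox2-positive libraries apart. Mesenchyme markers with a peak numbered 4 of 7 in each replicate, endothelial 1 and 2 of 5, blood 2 of 5 in each, neural 1 and 2 of 3, and muscle 0 of 3. Col3a1, Prrx1, Dspp, Pecam1, Cdh5, Ptprc, Sox10 and Myod1 had none in either replicate. The part of other cell types in the regions was not tested.

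Few of the regions lay on a promoter, and 41 overlapped a start-site window, defined as 250 bases before to 50 after a RefSeq start site on GRCm38.p6. They covered 44 windows, 22 of them of protein-coding genes. The upstream 250 bases of 7 windows are printed 5′ to 3′ in the direction of the gene. Slc13a2, Ftdc2, Gm33714 and Gm31417 are shown because they are the 4 windows under the stricter subset, Fgf3 because it is a tooth signalling gene, and Entpd2 and Uba7 because they carry the AP-1 letters that recurred in the windows. Capitals mark the letters of the motifs searched, on either strand, whether or not they lie in the region. Of the 250 bases printed, the region covered 56 at Ftdc2, 130 at Uba7, 139 at Entpd2 and 179 at Fgf3. It covered 197 at Gm31417 and 250 at Gm33714. Outside the region lie all capitals at Ftdc2 and Uba7, CATTCC at Fgf3, and CATTCC and TGGGTGG at Entpd2.
Slc13a2, chr11:78422235-78422484, minus strand: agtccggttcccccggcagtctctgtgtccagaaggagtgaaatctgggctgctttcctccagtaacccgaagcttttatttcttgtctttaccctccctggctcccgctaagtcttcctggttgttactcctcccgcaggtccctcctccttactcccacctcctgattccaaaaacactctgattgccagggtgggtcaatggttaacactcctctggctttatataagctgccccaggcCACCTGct
Ftdc2, chr16:58638404-58638653, minus strand: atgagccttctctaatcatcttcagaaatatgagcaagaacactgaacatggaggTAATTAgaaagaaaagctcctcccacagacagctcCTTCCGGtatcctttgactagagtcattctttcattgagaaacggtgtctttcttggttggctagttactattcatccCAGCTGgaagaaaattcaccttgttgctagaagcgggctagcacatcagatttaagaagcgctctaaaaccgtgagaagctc
Gm33714, chr5:144479800-144480049, minus strand: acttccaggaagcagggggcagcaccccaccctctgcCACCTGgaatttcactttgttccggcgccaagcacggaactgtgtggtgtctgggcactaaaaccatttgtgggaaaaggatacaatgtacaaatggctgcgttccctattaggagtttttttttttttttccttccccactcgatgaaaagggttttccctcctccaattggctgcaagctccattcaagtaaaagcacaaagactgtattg
Gm31417, chr19:34544730-34544979, minus strand: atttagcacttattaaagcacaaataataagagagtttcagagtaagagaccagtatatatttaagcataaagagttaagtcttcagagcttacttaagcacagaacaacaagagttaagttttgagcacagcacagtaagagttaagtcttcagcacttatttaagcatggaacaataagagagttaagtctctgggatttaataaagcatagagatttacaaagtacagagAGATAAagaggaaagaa
Fgf3, chr7:144838362-144838611, plus strand: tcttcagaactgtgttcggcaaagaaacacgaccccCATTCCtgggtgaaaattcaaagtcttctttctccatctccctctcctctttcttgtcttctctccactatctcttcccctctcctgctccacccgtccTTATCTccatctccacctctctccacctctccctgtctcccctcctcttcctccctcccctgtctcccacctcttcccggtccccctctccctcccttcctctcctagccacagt
Entpd2, chr2:25395624-25395873, plus strand: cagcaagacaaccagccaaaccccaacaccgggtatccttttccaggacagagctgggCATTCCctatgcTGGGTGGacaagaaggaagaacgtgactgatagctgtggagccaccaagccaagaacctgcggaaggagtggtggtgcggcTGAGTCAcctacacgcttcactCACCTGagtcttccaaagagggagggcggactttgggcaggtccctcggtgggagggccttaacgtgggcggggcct
Uba7, chr9:107975317-107975566, plus strand: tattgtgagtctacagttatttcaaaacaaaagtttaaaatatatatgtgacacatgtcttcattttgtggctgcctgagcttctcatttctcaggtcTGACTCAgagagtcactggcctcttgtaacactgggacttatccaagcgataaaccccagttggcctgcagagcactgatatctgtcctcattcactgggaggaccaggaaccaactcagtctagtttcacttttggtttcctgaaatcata

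Slc13a2 encodes a sodium-coupled citrate and dicarboxylate transporter. Its region, chr11:78421578-78422380, covered 146 of the 250 bases printed, and its signal was 748 in replicate 1 and 743 in replicate 2. The signal is the peak caller's own measure of a peak's size, not scaled between libraries. Ftdc2 had 460 and 350, Gm33714 had 564 and 577, and Gm31417 had 299 and 311. None of these 4 had a peak in any other full list. At Fgf3, which encodes a fibroblast growth factor of the dental mesenchyme and epithelium, the region chr7:144838433-144839322 had signals of 399 and 301. All 5 other libraries also had a peak there beyond rank 38000, at ranks 40994 and 43054 in ectoderm, 57030 in the incisor and 54881 and 63748 in the molars. At Fgf3 the pattern was thus one of rank and not of presence. The −log10 p, not scaled between libraries, was 3.46 and 3.16 in Sox2-positive replicates 1 and 2. It was 4.64 and 3.61 in ectoderm, 3.34 in the incisor and 3.67 and 3.33 in the molars. Entpd2, an ectonucleotidase gene, had signals of 342 and 376, and 4 of the other full lists also had a peak there. Uba7, the activating enzyme of the ubiquitin-like protein ISG15, had 384 and 316, with a peak in 3 of the other full lists.

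The windows under these regions held fewer CpG dinucleotides than those of open promoters at large. The median was 12 per window, against 22 over the 12652 windows under all regions of both Sox2-positive lists and 7 over all 31396 windows on the chromosomes in the table. Median GC content was 56.7%, against 62.3% and 53% in the same comparison. Windows sharing 1 bp or more with a region were taken whole, here and for the motifs. Matched letters thus need not lie in the region itself. Of 16 motif families searched, the AP-1 letters TGACTCA stood in 7 of 44 windows, or 15.9% (Wilson 95% interval 7.93 to 29.4), against 3.16% of the windows under both Sox2-positive lists and 5.26% of all windows. The 7 windows belonged to Entpd2, D330050G23Rik, Gm15417, Parvaos, Uba7, Gm51933 and Gm31417, in the last of which the letters lie in the 50 bases after the start site that are not printed. Of these 7, only the Gm31417 window lay under the stricter subset. At Uba7 the letters lie outside the region. TEAD letters (GGAATG) were found in 25% of windows (14.6 to 39.4), against 11.5% and 14.6%, and GLI letters (TGGGTGG) in 20.5% (11.2 to 34.5), against 9.37% and 9.34%. ETS letters (CCGGAAG), common in CpG-rich promoters, were found in 9.09% (3.59 to 21.2), against 18.1% and 9.0%. SOX letters (CATTGTT or CATTGTC) stood in 1 window, that of Parvaos, or 2.27%, against 3.28% and 6.55%.

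The other families were Grainyhead (AACCGGT or AACCTGT), PITX and OTX (TAATCC), TCF and LEF (ATCAAAG), RUNX (TGTGGTT), factors of the GATA family (AGATAA), forkhead (TGTTTAC or TGTTTGC), NFI (TTGGCA), homeobox (TAATTA), E-box (CAGCTG or CACCTG), KLF (GGGTGTG) and CRE (TGACGTC). For Grainyhead and CRE no window matched. PITX and OTX letters stood in 11.4% of windows (4.95 to 24.0), just above the 4.92% under both Sox2-positive lists. For the other 10 of these families the interval included the share under both lists. Mxra7 and C330002G04Rik each had 2 windows that overlap and share sequence, so their matches are counted 2 times. Matching letters are a description, not a binding site.

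Away from promoters, the regions were mostly distal. The centre of 63 (5.52%, 4.34 to 7.0) lay within 1 kb of an end of a protein-coding gene, 633 (55.5%) lay inside a gene, and 207 (18.1%, 16.0 to 20.5) lay more than 100 kb from any gene end. The median distance to a gene end was 26.2 kb, against 5.65 kb over all 27141 regions in both Sox2-positive lists, of which 35.8% lay within 1 kb. Of those 27141, 65.4% lay inside a gene and 8.76% lay beyond 100 kb. The chromosomes with start-site sequences (all but chromosome 18) held 1089 of the regions, of which 3.76% overlapped a start-site window, against 35.5% of those in both lists. The stricter subset had 3.16% within 1 kb and 22.9% beyond 100 kb.

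The closest comparisons were with regions that Sox2-positive cells shared with a single other tissue. Where only the whole incisor also had a peak (1583 regions), 3.92% lay within 1 kb of a gene end. The difference was 1.60 percentage points, and its interval only just excluded no difference (Newcombe 95%, 0.00866 to 3.31). The difference from the 4853 regions of all P2 libraries without ectoderm was 2.10 points (0.797 to 3.66). Where only the ectoderm also had a peak (408 regions), 21.8% lay within 1 kb, and the difference was −16.3 points (−20.7 to −12.3). In position, then, they lay near the tooth sets and far from the set shared with ectoderm. Regions in 1 Sox2-positive replicate alone had similar shares near gene ends, 4.88% and 5.17%, and 21.1% and 18.7% of them lay beyond 100 kb. Beyond 100 kb lay 16.0% of the set shared with the incisor and 17.0% of the set of all P2 libraries. Inside a gene these 2 sets had 55.3% and 56.0%. For the 1141 regions, the share within 1 kb was 7.49% with 30000 peaks per list and 9.18% with 20000, and 11.2% with summit windows. The sets shared with teeth were not recomputed under those settings. Intervals cover the counting of regions only.

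**Figure D1:**
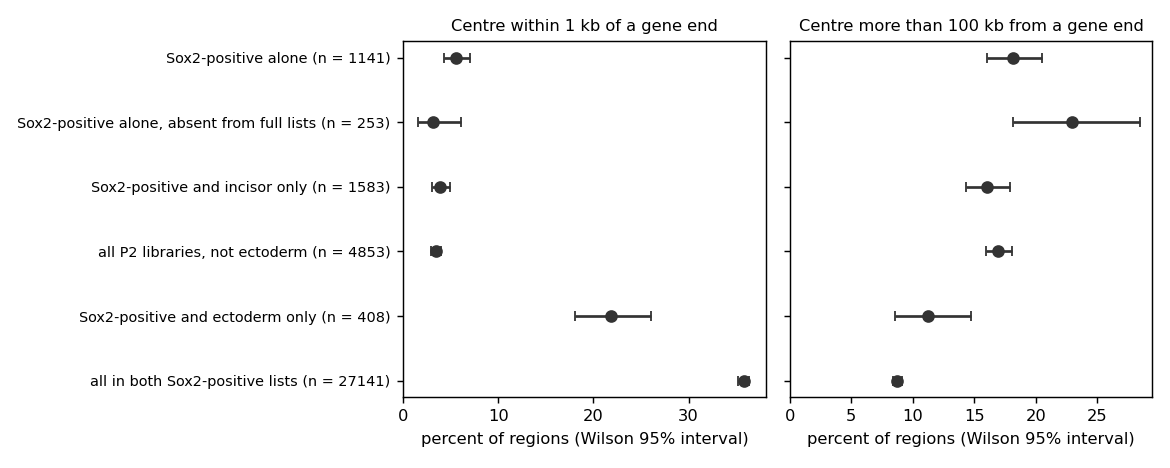
Percent of regions whose centre lies within 1 kb of a gene end (left) and more than 100 kb from one (right), for 6 sets of regions, with Wilson 95% intervals over regions. The 1141 Sox2-positive regions absent from the other lists of 38000 sit at 5.52% on the left, near the 2 sets shared with teeth and below the 21.8% of the set shared with ectoderm.

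These were weaker peaks than most that both Sox2-positive libraries held. The median signal was 426 in replicate 1 and 338 in replicate 2, against 808 and 773 over all regions in both lists. Ranked by signal within each list, their median percentile was 35.2 and 27.3, a mean of 31.3 ± 5.59 (SD, n = 2), against 62.5 ± 1.02 for all regions in both lists. Only 25 and 15 of the 1141 reached the highest 25% of a list. The median width was 551 bp (183 to 3390), close to the 597 and 552 bp of single peaks in the Sox2-positive lists. All regions in both lists, which join peaks of up to 7 libraries, had a median of 1111 bp. Regions shared with the incisor alone had median percentiles of 35.7 and 40.3 and a median width of 646 bp. Regions shared with all P2 libraries but not ectoderm stood at 55.6 and 54.0.

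The replicates' summits mostly lay close together, but less so than over all regions in both lists. The rule itself required a peak of both replicates in each region. The median gap between their summits was 39 bp, and 75% (856 regions) lay within 100 bp, against 25 bp and 82.4% over all regions in both lists. In the stricter subset the median gap was 34 bp. The order of signal was less alike, with a Spearman coefficient between replicates of 0.363 across the 1141 regions and 0.809 across all regions in both lists. Regions shared with the incisor alone had a coefficient of 0.284 and a median gap of 37 bp. Those shared with ectoderm alone had 0.420 and 40.5 bp, so the lower agreement was not particular to the 1141. The coefficient is a description across regions, which share the same 2 libraries and had to pass the same limit.

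**Figure D2:**
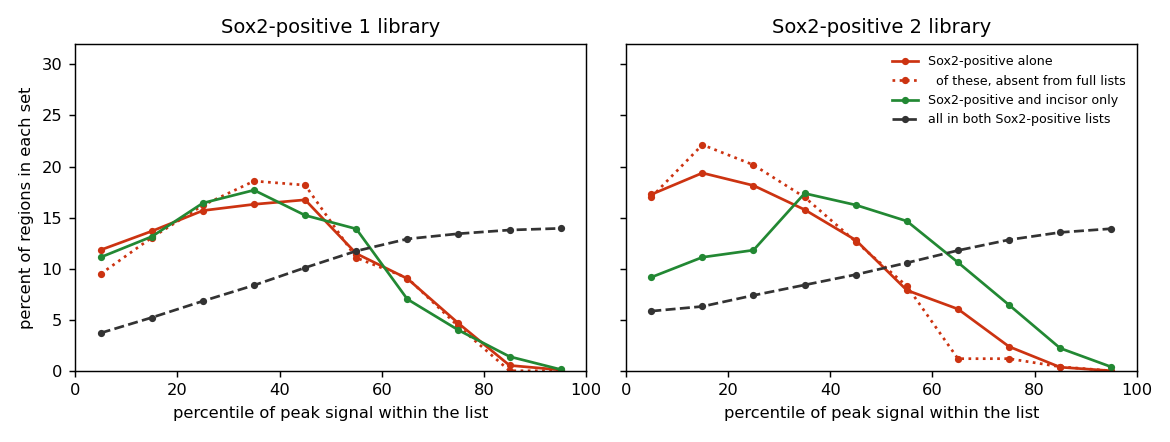
Distribution of peak signal, as a percentile within the list of 38000 (x axis), for 4 sets of regions (y axis, percent of each set) in Sox2-positive replicates 1 (left) and 2 (right). The 1141 regions absent from the other lists of 38000 crowd the lower percentiles, with medians of 35.2 and 27.3, while all regions of both lists lean to the upper end.

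Most of the regions were not bare in the other tissues, where all but the 253 of the stricter subset had a peak beyond rank 38000. The incisor had one at 677 regions (59.3%), the lower molar at 476 (41.7%), the upper molar at 463 (40.6%), and ectoderm replicates 1 and 2 at 272 (23.8%) and 100 (8.76%). A peak in whole teeth and not in ectoderm was found at 608 regions, in ectoderm and not in teeth at 59, and in both at 221. The incisor alone accounted for 227. The lists differ in length beyond the limit, by 24074 peaks in the incisor, 11719 in ectoderm replicate 2 and 42850 in ectoderm replicate 1, so these shares are not on a common scale between libraries. The median rank of these peaks was 48004 in the incisor, 57318.5 and 53476 in the molars and 56392 and 44438 in ectoderm. In the incisor 179 of them lay within 5000 ranks of the limit. The −log10 p of the peak beyond the limit, not scaled between libraries, was above both Sox2-positive values at 143 regions in ectoderm replicate 1. It was above both at 16 regions in ectoderm replicate 2, 125 in the incisor, and 93 and 106 in the lower and upper molar. Exclusion by rank is thus not absence of a peak. With all deposited peaks used, 304 regions had the pattern, and 252 of the 1141 were among them.

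**Figure D3:**
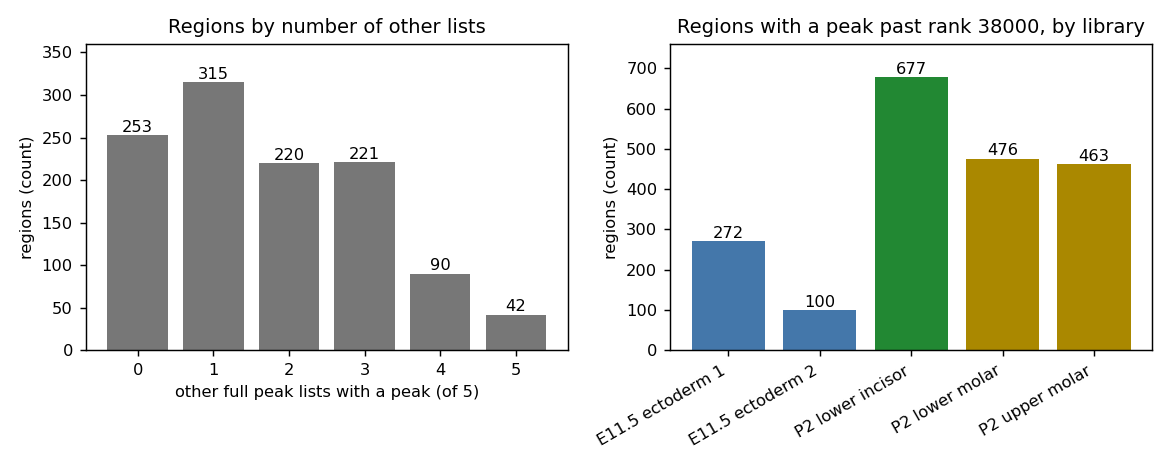
Left, number of regions (y axis) by how many of the 5 other full lists hold a peak there, from 253 with none to 42 with all 5. Right, number of regions with a peak past rank 38000 in each other library, highest in the whole incisor (677) and lowest in ectoderm replicate 2 (100).

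The best-ranked regions, ordered by the poorer of their 2 signal ranks, led with a site 74.3 kb from Nap1l1, a histone chaperone gene. At chr10:111398057-111399086 its signal was 1417 in replicate 1 and 1604 in replicate 2, and the incisor had a peak there at rank 58544. A site inside Exoc6, a subunit gene of the exocyst that tethers secretory vesicles (chr19:37680697-37681409), had 1258 and 1257, with a peak in ectoderm replicate 1 at rank 63445. Marchf3, a membrane ubiquitin ligase gene, held chr18:56836823-56838149 with 1216 and 1189. Each of these sites had a peak beyond the limit in a single other library. Shisal1 followed at chr15:84481093-84482353 (1179 and 1170), and Gabbr2, a GABA-B receptor subunit gene, at chr4:46784287-46785165 (1052 and 1164). Ltbp4, which binds latent TGF-beta in the matrix, held chr7:27325578-27326798 (1034 and 1335). It had peaks in both ectoderm lists and the incisor beyond the limit. Of the 10 best-ranked, 2 were in the stricter subset, the sites at Dhx35 and Fndc3b, and 2 lay in the Mroh2a and Hjurp block on chromosome 1.

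The stricter subset was led by regions with no peak elsewhere at any rank. The first, chr2:159519044-159520142, lay 661 kb from its nearest gene end, that of Dhx35, a helicase gene, and had 1104 and 1209. The second lay inside Fndc3b at chr3:27429537-27430825 (1049 and 1056). A region 65.2 kb from Pthlh, the gene of parathyroid hormone-related protein, which tooth eruption requires (chr6:147328944-147329560), had 886 and 1076. Inside Usp45, a deubiquitinase gene, chr4:21826125-21826818 had 1097 and 852. Mycn, a MYC-family transcription factor gene of proliferating progenitors, had a region 114.6 kb away at chr12:12821128-12821770 (780 and 691). The remaining 5 were the Slc13a2 promoter and sites at Cdh8 (chr8:99144803-99145408, 1011 and 744), Prdm6 (chr18:53542641-53543280, 947 and 724), Ippk (chr13:49411930-49412534, 857 and 696) and Tbccd1 (chr16:22848259-22848763, 673 and 716). Of these 10, the sites at Dhx35, Pthlh, Usp45, Prdm6, Ippk, Mycn and Tbccd1 kept the pattern under all 13 other settings. Those settings include leaving out a replicate or not using the incisor or molars to exclude, which keep every region by construction. Using all deposited peaks also kept 252 of the 253 stricter regions. Only the settings that change list length, ranking, overlap or spacing could remove these sites. The Slc13a2 site was lost with 20000 peaks per list, and those at Fndc3b and Cdh8 with summit windows.

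Each region was assigned to the nearest protein-coding gene end within 100 kb, which gave 934 regions at 841 genes, 4.07% of the 20665 genes on these chromosomes. Of the genes, 764 had 1 region, 66 had 2 and 11 had 3 or more. The 19 gene lists were chosen with earlier results of these data known, and assignment by distance does not show which gene a region acts on. Over all lists together 48 of 457 genes (10.5%) had a region. Since genes differ in how many regions surround them, each list was also read as a share of the distal regions at its own genes. Among distal Sox2-positive regions, those over 1 kb from a gene end, 5.79% (871 of 15046, 5.43 to 6.17) were absent from the other 5 lists of 38000, and every list's interval included that share. No list was thus distinguishable from all genes by these intervals.

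Genes of the dental epithelial progenitor list had a region at 5 of 24, namely Ptch1, Yap1, Cldn10, Foxi3 and Itga6, with 7 regions in all. Those made up 10.3% of the 68 distal Sox2-positive regions at the list's genes (5.08 to 19.8). Ptch1, the hedgehog receptor and itself a hedgehog target, had a region in the gene at chr13:63512356-63513745 with signals of 1179 and 832. The incisor and the molars had peaks there at ranks 46650, 57739 and 63144. The second, chr13:63558452-63558917, had 204 and 243, close to the limit. There too the incisor and the molars had peaks, at ranks 53643, 67752 and 56388.

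Yap1, the coactivator restrained by the Hippo pathway, had a region of the stricter subset 28.2 kb from the gene at chr9:7903387-7904145 (851 and 594), and another 5.69 kb away at chr9:7926020-7926605 (443 and 497, incisor rank 44579). Cldn10, a tight-junction claudin gene, had one of the stricter subset at chr14:118774664-118775303 (619 and 325). The regions at Foxi3, a forkhead factor gene of early dental epithelium (209 and 275), and at Itga6, the integrin alpha-6 gene of the basal cell membrane (297 and 203), were near the limit. Ectoderm replicate 1 had a peak at the Foxi3 region, at rank 74123. At the Itga6 region the incisor and the molars had peaks at ranks 42468, 53483 and 49633. Their −log10 p was 3.85, 3.71 and 3.82, against 3.70 and 3.48 in Sox2-positive cells, with no common scale. Sox2 itself had no assigned region. In the SOX list 1 of 18 genes had one, Sox6, a SOXD factor gene, 96.6 kb away at chr7:115374052-115374395 (251 and 275, stricter subset). In the list of stratum intermedium and stellate reticulum, the layers beneath the enamel epithelium, it was 1 of 20, Vat1l (chr8:114303516-114303957, 797 and 337, stricter subset). No gene of the enamel secretion list had a region (0 of 23 genes, and 0 of 24 distal regions, interval up to 13.8%).

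For ligands, WNT, FGF and BMP genes each had regions, and those at the Wnt10a gene end and the Fgf3 promoter were also in every other full list. At the list genes below, any region not marked as of the stricter subset also had a peak in another full list. Wnt10a, a WNT ligand gene in which mutations cause tooth agenesis, had chr1:74791295-74792329, 0.207 kb from a gene end, with 457 and 652. All 5 other full lists had a peak there, at ranks 51340 and 42032 in ectoderm, 45567 in the incisor and 40182 and 38205 in the molars. The −log10 p of those 5 peaks ran from 3.61 to 4.23, against 3.59 and 3.33 in Sox2-positive cells, with no common scale between libraries. In the WNT list 7 of 64 genes had a region. Among its receptors, Fzd2 had 726.5 and 730.5 with peaks in all 5 other lists, and Fzd7 had 550 and 652 in the stricter subset. Nkd1, a feedback inhibitor gene of WNT signalling, had 611 and 474. In the FGF list it was 4 of 38, with Spred2, an inhibitor of the kinase cascade below FGF receptors, at 651 and 624. Fgf23, the phosphate-regulating hormone gene, had 574 and 337, and Fgf1 had 207 and 379.

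By the same distal share, the BMP, TGF-beta and activin list stood at 6.25% and hedgehog at 6.25%. NOTCH stood at 3.90% and ectodysplasin at 9.09%, against 5.79% over all genes. In the BMP, TGF-beta and activin list 7 of 48 genes had a region. The ligand gene Bmp7 had a region of the stricter subset 13.6 kb away (362 and 428) and a weaker one inside the gene (246 and 263). Fstl1, a secreted follistatin-like protein gene, had 512 and 438, with a peak in all 5 other full lists. Smad7, the inhibitory SMAD gene, had 387 and 459, with a peak in 4 of them. Id3, a BMP target gene, had 359 and 293. The hedgehog list had 3 of 19, Ptch1, Sufu, which restrains GLI factors (521 and 543), and Disp1, which releases the ligand (331 and 826). The Sufu region had a peak in 4 other full lists. In the NOTCH list, 3 of 25 had one. The ligand gene Dll1 had 483 and 270 in the stricter subset, and the coactivator gene Maml2 273 and 261. Lfng, a glycosyltransferase that modifies the receptor, had 394 and 215, with a peak in all 5 other full lists. Of 8 ectodysplasin pathway genes on the chromosomes used, the receptor gene Edar (331 and 218, stricter subset) and its adaptor gene Edaradd (449 and 361) had regions.

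The AP-1 and stress response list had 6 of 27 genes with a region, 11.1% of 54 distal regions (5.19 to 22.2). Jun, an AP-1 subunit gene, had a region of the stricter subset 10.7 kb away (399 and 393) and another 0.674 kb from a gene end (315 and 215). Nr4a1, an immediate early nuclear receptor gene, had 375 and 285, and Myc had 561 and 248.8, both in the stricter subset. The labels describe dissociation to single cells and sorting for the Sox2-positive cells alone, so an effect of that handling and of cell type cannot be told apart. The embryonic facial ectoderm list had 5 of 24. Eya1, a transcriptional coactivator gene of placodes, had 431 and 227, Ripply3 248 and 294, and Dlx6, a distal-less homeobox gene, 256 and 213 in the stricter subset.

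The remaining lists gave the following counts, none distinguishable from all genes by the intervals above. In the dental mesenchyme and odontoblast list it was 1 of 27, Nfic, a factor gene of root formation (244 and 729, incisor rank 40491). Blood and immune genes had 2 of 21, Runx1 (392 and 599, stricter subset) and Ly86 (315 and 225). The neural list had 1 of 15, the neurotrophin receptor gene Ngfr (890 and 635), general epithelium 1 of 30, the desmosomal gene Pkp1 (523 and 336, stricter subset), and cell cycle 1 of 28, the CDK inhibitor gene Cdkn2c (616 and 372). Endothelium had 0 of 17 and muscle 0 of 15.

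**Figure D4:**
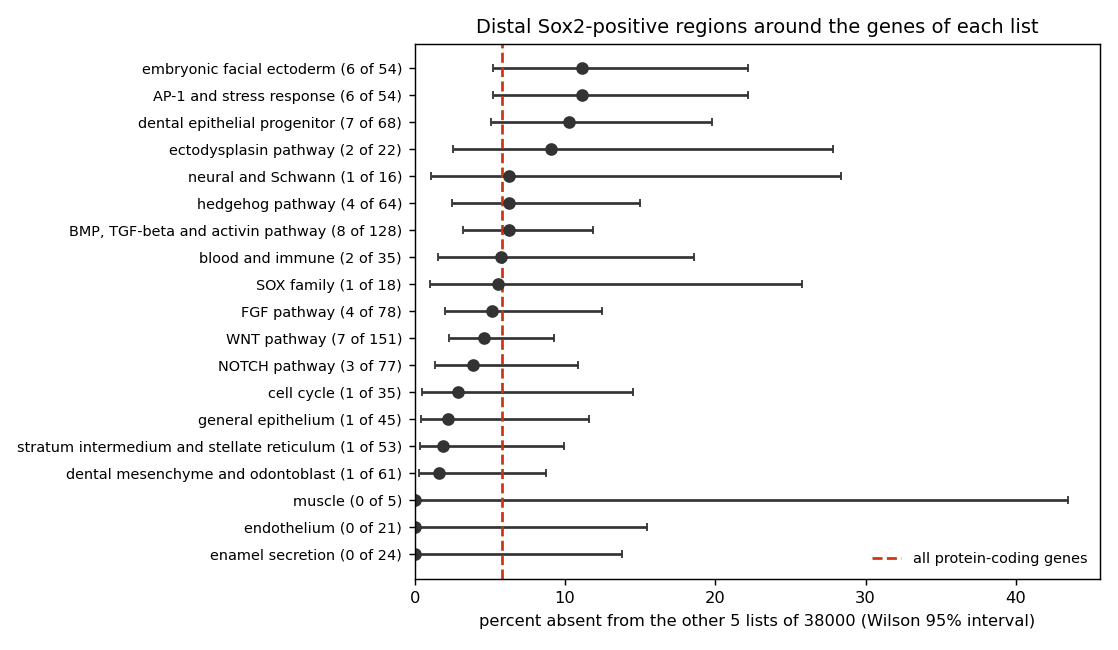
Percent of distal Sox2-positive regions at the genes of each list that were absent from the other 5 lists of 38000 (x axis, with Wilson 95% intervals), with the number of regions beside each list. The dashed line is the 5.79% over all protein-coding genes, which lies inside every interval.

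The regions were spread over all 19 chromosomes, from 3.37% of both-list regions on chromosome 11 to 6.12% on chromosome 18. With gaps of up to 50 kb joined, 939 stood alone, 73 blocks held 2 and 15 blocks held 3 or more (56 regions in all). The gap was chosen after the values were seen, and copy number and mappability at the blocks were not tested. The largest block spanned 69.4 kb at chr1:88232651-88302073 over Mroh2a and Hjurp, the gene of the centromere histone chaperone, and held 10 regions, 4 of them in the stricter subset. They were also among the widest, from 1070 to 3390 bp, and the widest of all, chr1:88247631-88251020, had signals of 1243 and 1258.

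Across that block the 2 Sox2-positive libraries had 18 and 21 peaks in the lists of 38000, the ectoderm libraries 2 and 3, the incisor 3 and the molars 3 and 2. Peaks covered 44.8% and 50.7% of its bases in Sox2-positive cells, against 4.55% and 11.1% in ectoderm, 9.72% in the incisor and 10.2% and 11.5% in the molars. In the full lists the counts were 29 and 23, against 5 and 7, 11, and 10 and 10. On the side of the Ugt1a genes, a flank of equal length had 11 and 6 full-list peaks in Sox2-positive cells and 1 to 2 in the others. The flank on the Trpm8 side had 3 and 2, against 2 to 4. The gaps between the replicates' summits ran from 155 to 852 bp at 9 of the 10 regions and came to 6 bp at the region nearest Trpm8. The widest region ranked 35047 and 35013 by p-value and 8574 and 8639 by signal, and with 30000 peaks per list it was no longer called.

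**Figure D5:**
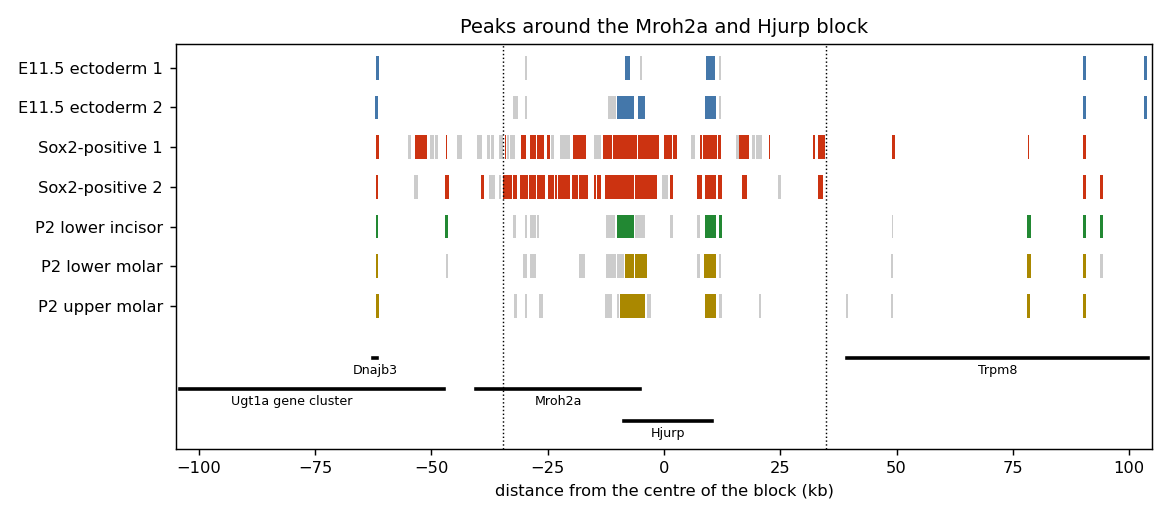
Peaks of the 7 libraries (rows) by distance from the centre of the Mroh2a and Hjurp block (x axis, kb). Coloured bars are peaks within rank 38000, grey bars those beyond it, dotted lines the bounds of the block, and black bars genes. Between the dotted lines the Sox2-positive rows hold 18 and 21 coloured peaks, over 44.8% and 50.7% of the bases, and the other rows hold 2 or 3.

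The second block held 5 regions over Nfix, a nuclear factor I gene, and its neighbour Lyl1, at chr8:84704985-84799803. None was in the stricter subset. Sox2-positive cells had 19 peaks in each library there, the incisor 12, the molars 13 each and ectoderm 2 and 4, so this tract was widely open in P2 teeth. The next, of 3.37 kb at chr14:19415670-19419035, held 4 regions of the stricter subset 114.8 to 117.7 kb from Gm2244. Their signals in replicate 1 were 1189, 638, 536 and 885, and in replicate 2 they were 391, 246, 254 and 377. The full lists held 6 and 4 Sox2-positive peaks and 0 in the other 5 libraries. Peaks covered 67.3% and 22.8% of its bases in replicates 1 and 2. Copy number and mappability were not tested there either.

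Near other peaks, 68 of the regions (5.96%) lay within 500 bp of a peak of another library's list of 38000, and 706 (61.9%) within 10 kb. The limit itself passed between regions of like value. The last regions inside it were at Myo10 (chr15:25642203-25642919, 289 and 238) and 76.4 kb from Gpatch2 (chr1:187447566-187448459, 318 and 232). The first outside were at Hrh1 (chr6:114478677-114479303, 471 and 222, rank 38009 in replicate 2) and 121 kb from Spdye4c (chr2:128470348-128470997, 270 and 220, rank 38013). The replicates set the count too. With replicate 1 or 2 left out, 4416 and 4072 regions had the pattern, and by construction both sets included the 1141. Replicate 2 also shared 2869 regions with the incisor alone, against 611 for replicate 1. With 20000 peaks per list the pattern held at 534 regions, of which 89 were among the 1141.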

How the data were processed

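Peak lists of 7 ATAC-seq libraries were used, each called per library. The submitters' processing notes name mm10, FastQC, Trimmomatic, Bowtie2, deepTools and Genrich, and versions and options are not given in the sources used here. Of the deposited values, the signal of a peak and the −log10 of its p-value were used to rank peaks within a list. Nothing in the files scales them between libraries, so values printed for several libraries are not on a common scale. For each library the 38000 peaks with the highest −log10 p on chromosomes 1 to 19 were taken, ties going to the higher signal, and overlaps of 1 bp or more were merged. No p-value was computed, since regions are not replicates. The merging and counting were checked on simulated data. Intervals are Wilson or Newcombe at 95% (Python 3.11.15, pandas 2.3.3, statsmodels 0.14.6, numpy 2.4.6).

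Genes and start-site sequences came from RefSeq tables of GRCm38.p6, and chromosome 18 is not in the sequence table. Motif letters were planned around summits and were searched in start-site windows instead, since no genome sequence was used here. The regions, gene lists and motifs were chosen with earlier results of these data known. Regions named are the 10 best ranked by signal in both replicates, the 10 best of the stricter subset, all at progenitor, enamel, stratum intermedium and SOX genes, up to 4 genes of each other list, those of genes with 3 or more, the 5 widest and the 2 on either side of the limit. Some regions that met this rule are not reported here.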

Additional observations from a re-analysis of the deposited data

How the results depend on the processing

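The number of regions depended strongly on the settings. The count of 1141 became 534 with 20000 peaks per list and 304 with all deposited peaks. It was 2742 when the incisor was not used to exclude and 2018 when the molars were not. The stricter count of 253 became 108 with 30000 peaks, 16 with 20000, 517 with summit windows of 200 bp, 705 without the incisor and 558 without the molars. Near gene ends, the share of 5.52% was 7.49% with 30000 peaks, 9.18% with 20000, 3.62% with all peaks, 11.2% with summit windows, 10.7% with a window of 2.5 kb and 3.51% with 500 bp. Genes of the lists with a region numbered 48, and 31 with assignment within 25 kb. Leaving out each replicate in turn gave 1184 to 4416 regions, 256 to 1248 in the stricter subset, shares of 5.06% to 7.08%, the highest without ectoderm replicate 2, and mean signal percentiles of 20.8 to 31.5, the lowest without either Sox2-positive replicate.

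Ranking by signal kept 797 of the 1141 regions, 50% coverage 1044 and summit windows 1035. The causes of these shifts were not tested beyond the longer or shorter lists and fewer libraries that the settings impose. Depth is unknown, so an undetected peak and a closed site cannot be told apart. No paired analysis was possible because the result comes from no test.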

Other observations

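The X chromosome was outside the rule. With each library's −log10 p at rank 38000 as the limit there, 1198 merged regions lay on X, 508 of them open in both Sox2-positive replicates, and 14 of those had no peak within the limit of any other library. Of these 14, 2 were absent from the full lists of the other 5 libraries. The region at chrX:36632224-36632808 was among them and lay inside Akap17b, 12.9 kb from a gene end. A further region, not in the stricter subset, lay 0.124 kb from an end of Gripap1.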
